A study of Mus musculus with 12 samples.

Results

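The genes described here are 49 interferon targets and antigen-processing genes, followed in mouse liver with and without hepatocyte growth factor (HGF) and with and without its receptor c-Met (gene Met) in hepatocytes. They were taken from a list of names and matched through the symbols of the platform annotation; no threshold on a value chose them. By role the list held 4 interferon receptor subunits, 7 transcription factors, 4 cytosolic sensors, 16 antiviral effectors, 4 genes of Isg15 conjugation, 8 interferon-inducible GTPases and 6 genes of the immunoproteasome and of peptide loading. A probe set was matched for 45 of the 49 genes, and Ifit3, Ifi44, Oas1a and Isg15 are not analysed here. Of the 16475 probe sets on the arrays, 6683 were tested, namely those with a log2 level of at least 4 on at least 3 arrays, and 39 of these were members. Dhx58, Ifit2, Isg20, Oas2, Mx1 and Mx2 did not meet that minimum.

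Livers of 12 mice were profiled, 1 Affymetrix array per mouse and 3 mice per group. All mice carried loxP-flanked alleles (c-Met loxP/loxP). The 6 control mice had these alleles alone, and the 6 knockout mice also carried Cre, driven in hepatocytes either by the albumin and alpha-fetoprotein promoter and enhancer (Alfp-Cre) or by the albumin promoter (Alb-Cre). The labels do not tie an array to a Cre line, and cells other than hepatocytes keep the receptor. In each genotype 3 livers were unstimulated and 3 were taken 2 h after 2 µg of recombinant mouse HGF had been injected intraperitoneally. Injections of sodium chloride are also named, and it is not settled which mice received them, so "without HGF" means only the groups labelled unstimulated. The sources used here do not state the age of the mice. The series asks what c-Met does in chronic liver damage after bile duct ligation, and these arrays give the early HGF response in livers without ligation as far as the labels say.

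Interferons act through paired receptor chains, Ifnar1 with Ifnar2 for type I interferons and Ifngr1 with Ifngr2 for interferon-gamma. The receptors activate STAT proteins, which with Irf9 bind interferon-stimulated response elements (ISRE) or, as dimers, gamma-activated sites (GAS). The targets include antiviral proteins, GTPases that act on the vacuoles of intracellular microbes, and the machinery that cuts and carries peptides for MHC class I, the complex that displays them to T cells. Irf1, one of the first targets, is a transcription factor that also answers to NF-kappaB and drives many of the others.

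Promoter sequences are shown for 6 members on which the results below turn, and for the stretch that Tap1 and Psmb9 share, because the control groups lay apart for Tap1 and overlapped for Psmb9. RefSeq windows of 250 bases before to 50 after a gene's start (GRCm38.p6) were matched by symbol for 39 of the 49 listed genes, 46 windows in all, and for 33 of the 39 tested ones. Both strands were searched for the GAS letters TTCNNNGAA, for the ISRE core GAAANNGAA and for the kappaB consensus by its name. GAS letters stood in 14 of the 46 windows (30.4%), against 8.3% of all 32851 promoter windows of this length. ISRE letters stood in 16 (34.8%), against 8.56%, and kappaB letters in 8 (17.4%), against 8.46%. Matches of different motifs can overlap, as in Bst2. A match describes letters and is not a site shown to be bound. Capitals mark the matches, and each sequence is printed on the strand of its gene.
Irf1 (chr11:53769764-53770063, plus strand): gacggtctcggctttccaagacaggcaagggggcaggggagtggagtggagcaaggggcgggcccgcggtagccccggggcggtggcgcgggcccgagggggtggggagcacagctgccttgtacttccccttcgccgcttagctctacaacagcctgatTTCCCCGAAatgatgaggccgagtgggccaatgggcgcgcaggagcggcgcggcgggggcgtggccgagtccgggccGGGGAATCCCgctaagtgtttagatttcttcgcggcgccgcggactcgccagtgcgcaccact
Irf8 (chr8:120736108-120736407, plus strand): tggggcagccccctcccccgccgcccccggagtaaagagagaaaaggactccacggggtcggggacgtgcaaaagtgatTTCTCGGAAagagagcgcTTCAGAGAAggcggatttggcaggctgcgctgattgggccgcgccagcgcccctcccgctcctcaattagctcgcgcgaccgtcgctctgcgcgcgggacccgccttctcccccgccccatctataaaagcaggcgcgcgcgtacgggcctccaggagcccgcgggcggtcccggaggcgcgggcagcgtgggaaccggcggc
Gbp2 (chr3:142620413-142620712, plus strand): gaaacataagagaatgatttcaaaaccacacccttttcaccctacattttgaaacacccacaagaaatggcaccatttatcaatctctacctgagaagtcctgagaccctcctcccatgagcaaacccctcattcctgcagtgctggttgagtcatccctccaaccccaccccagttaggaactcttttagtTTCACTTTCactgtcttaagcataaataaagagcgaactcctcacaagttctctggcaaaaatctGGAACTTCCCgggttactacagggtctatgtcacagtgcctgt
Igtp (chr11:58199306-58199605, plus strand): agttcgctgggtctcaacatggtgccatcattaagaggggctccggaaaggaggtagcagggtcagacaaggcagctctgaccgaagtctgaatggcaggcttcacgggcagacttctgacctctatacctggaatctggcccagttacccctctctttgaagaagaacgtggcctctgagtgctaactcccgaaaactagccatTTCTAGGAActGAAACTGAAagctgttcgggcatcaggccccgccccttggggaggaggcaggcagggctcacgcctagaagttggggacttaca
Ifit1 (chr19:34640639-34640938, plus strand): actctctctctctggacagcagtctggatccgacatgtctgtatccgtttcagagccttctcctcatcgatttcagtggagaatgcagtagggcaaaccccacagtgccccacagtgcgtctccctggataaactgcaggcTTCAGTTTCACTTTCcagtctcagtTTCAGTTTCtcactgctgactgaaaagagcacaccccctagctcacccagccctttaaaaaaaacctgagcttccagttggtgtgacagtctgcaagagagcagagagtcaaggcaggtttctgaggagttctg
Rsad2 (chr12:26456403-26456702, minus strand): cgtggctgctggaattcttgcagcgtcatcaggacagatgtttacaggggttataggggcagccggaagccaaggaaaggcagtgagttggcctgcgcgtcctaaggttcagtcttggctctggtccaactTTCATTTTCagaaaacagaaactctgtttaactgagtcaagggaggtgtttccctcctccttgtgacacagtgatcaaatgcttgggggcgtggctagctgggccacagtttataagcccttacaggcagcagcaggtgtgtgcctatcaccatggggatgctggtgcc
Tap1 and Psmb9 shared (chr17:34187306-34187580, plus strand): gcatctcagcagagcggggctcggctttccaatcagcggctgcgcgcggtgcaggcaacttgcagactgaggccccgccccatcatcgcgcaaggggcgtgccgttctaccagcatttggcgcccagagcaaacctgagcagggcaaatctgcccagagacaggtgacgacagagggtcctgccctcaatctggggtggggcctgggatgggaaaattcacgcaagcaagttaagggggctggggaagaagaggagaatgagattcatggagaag

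Irf1 holds a GAS match from -90 to -82 and a kappaB match from -13 to -4, counted from the start of the gene, and Irf8 holds 2 GAS matches, from -171 to -163 and from -153 to -145. Gbp2 holds an ISRE match from -58 to -50 and a kappaB match from 8 to 17. In Igtp a GAS match ends 2 bases before an ISRE match. Ifit1 has 3 ISRE matches, of which the first pair overlap, and Rsad2 has 1. None of the 3 motifs matched in the stretch common to Tap1 and Psmb9.

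Levels are given as log2(intensity + 1), differences in log2 units with the standard error (SE) of limma, and group means with their SD (n = 3). Calls required a limma p under 0.05 after Benjamini-Hochberg adjustment over all 6683 tested probe sets. Groups are said not to overlap where every array of one group lies above every array of the other. Differences on this scale understate the change of genes near background, and levels are not compared between genes. In whole liver RNA, fewer cells of a type and less RNA per cell cannot be told apart.

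The knockout arrays did not fall together by label. Each array was placed on an index over the tested probe sets other than the members, on which the mean of control arrays is 0 without HGF and 1 with it. Control arrays lay between -0.05 and 0.07 without HGF and between 0.88 and 1.06 with it. Unstimulated knockout replicates 1, 2 and 3 had an index of 0.12, 0.98 and 0.05, and the HGF-treated ones 0.33, 0.02 and 0.94. The array labelled unstimulated knockout replicate 2 thus stood with the treated controls, and the one labelled HGF-treated knockout replicate 2 with the untreated controls. The members followed the same split: replicate 2 was the highest array of the unstimulated knockouts in 34 of the 39 tested members (87.2%, against 30.8% of all tested probe sets). Replicate 3 was the highest of the HGF-treated knockouts in 35 (89.7%, against 27.9%), and replicate 2 the lowest in 23 (59.0%, against 34.0%). Labels were followed throughout, and values without the 2 knockout replicate 2 arrays, left out after the data were known, are given where they differ. The arrays run from 1 to 6 for controls and from 7 to 12 for knockouts, so genotype and array order cannot be told apart. The Met transcript did not check the labels: the averaged knockout difference was 0.10 (SE 0.18, adjusted p = 0.872, limma), and the sources used here do not give the part of the gene that the probe set reads.

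**Figure D1:**
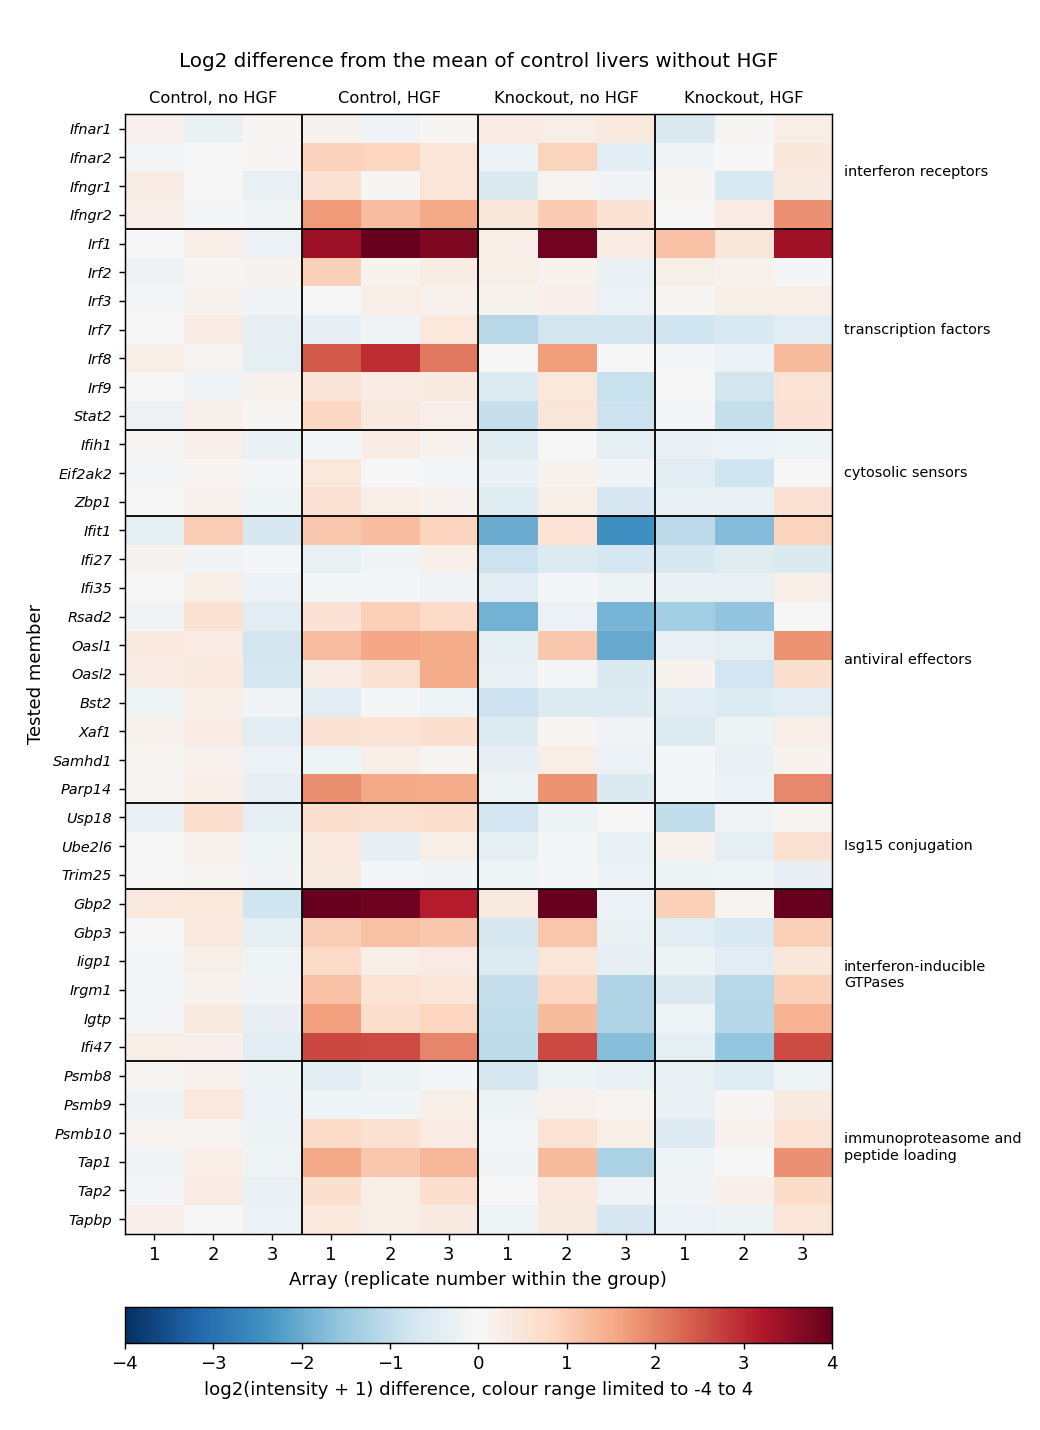
Level of each of the 39 tested members (vertical axis, by role) on each of the 12 arrays (horizontal axis), as the log2 difference from the mean of control livers without HGF; red is higher, blue lower, and the colour range stops at -4 and 4. Treated controls, unstimulated knockout replicate 2 and HGF-treated knockout replicate 3 share the red cells of Irf1, Irf8, Gbp2 and Ifi47, while Irf7, Ifi27 and Bst2 are blue in the knockout arrays.

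In control livers 2 h after HGF, most of the module stood higher, led by interferon-inducible GTPases, Irf1 and Irf8. The difference was positive in 33 of 39 tested members, with a median of 0.47, against a median of -0.09 and 2376 positive of all 6683 tested probe sets. In 19 of the 39 the groups did not overlap with HGF higher (48.7%, against 14.1% of all tested probe sets), and in 0 with HGF lower (23.7% of all). Without the minimum on levels this held for 21 of the 45 members with a probe set, Mx1 and Mx2 joining, against 10.5% of all 16475. No member passed limma over the 4 groups (0 of 39, against 0.404% of all tested), where 9 were higher at an unadjusted p under 0.05 (23.1%, against 8.95%) and 0 lower (10.6% of all). That fit pools the spread over all groups, the split knockout arrays included. Fitted on the 2 control groups alone, limma called 10 members, all higher (25.6%, against 6.79% of all): Gbp2, Irf8, Ifi47, Ifnar2, Ifngr2, Irf1, Tap1, Oasl1, Parp14 and Gbp3. Without the 2 knockout replicate 2 arrays it called 5, all higher (12.8%, against 5.34%), namely Gbp2, Irf8, Ifnar2, Ifngr2 and Irf1. Without only the unstimulated one of these arrays it called 4, and without knockout replicate 3 with HGF it called 2. The share of all tested probe sets called in these last fits is not given, so their counts are not read as a trait of the members.

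Among the receptors, the chains Ifngr2 and Ifnar2 were higher after HGF, and their partners Ifngr1 and Ifnar1 overlapped between the groups. Ifngr2 measured 4.60, 4.32 and 4.25 in control livers without HGF and 6.08, 5.64 and 5.91 with it. In knockout livers its levels were 4.84, 5.40 and 4.96 without HGF and 4.39, 4.73 and 6.21 with it. Every HGF-treated control thus lay above every untreated one, and a single HGF-treated knockout array reached their range. The difference in controls was 1.49 (SE 0.39, adjusted p = 0.0989 over 4 groups and 0.00193 in the control groups alone, limma). Ifnar2, the signalling chain of the type I receptor, measured 6.25, 6.28 and 6.32 without HGF and 7.20, 7.14 and 6.76 with it in controls, a difference of 0.75 (SE 0.30, adjusted p = 0.208 and 0.0156 in the same limma fits). Ifngr1 differed by 0.38 (SE 0.27) and Ifnar1 by 0.02 (SE 0.20). Ifnar2, Ifnar1 and Ifngr2 lie close together on chromosome 16, with Ifnar1 between the other two, so the neighbour at the centre of the cluster had the smallest difference.

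The transcription factors divided. Irf1 measured 7.10, 7.35 and 6.85 in control livers without HGF and 10.53, 11.47 and 10.82 with HGF. Unstimulated knockouts gave 7.35, 10.95 and 7.40, and HGF-treated knockouts 8.27, 7.54 and 10.50. The control groups were far apart, while each knockout group held 1 array at the level of treated controls. The Irf1 difference in controls was 3.84 (SE 0.95, 14.4-fold on this scale, adjusted p = 0.0954, and 0.00418 without the knockout replicate 2 arrays, limma).

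Irf8, a factor best known from macrophages and dendritic cells, measured 3.78, 3.65 and 3.16 without HGF and 5.98, 6.47 and 5.64 with HGF in controls. In knockouts it measured 3.52, 5.19 and 3.56 without HGF and 3.48, 3.28 and 4.80 with it. It reached the minimum level of 4 on 5 arrays only, all of them arrays where it was high, so it was tested because of them. Its difference of 2.50 in controls (SE 0.50, adjusted p = 0.0658, limma) had the smallest adjusted p among the members. Irf2, a partner and antagonist of Irf1 (0.46, SE 0.22), Irf9 (0.39, SE 0.35) and Stat2 (0.47, SE 0.43), the DNA-binding and activating parts of the type I interferon complex, did not overlap either and were higher. Irf3 and Irf7, which switch on the interferon genes themselves, differed by 0.14 (SE 0.14) and -0.02 (SE 0.22).

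**Figure D2:**
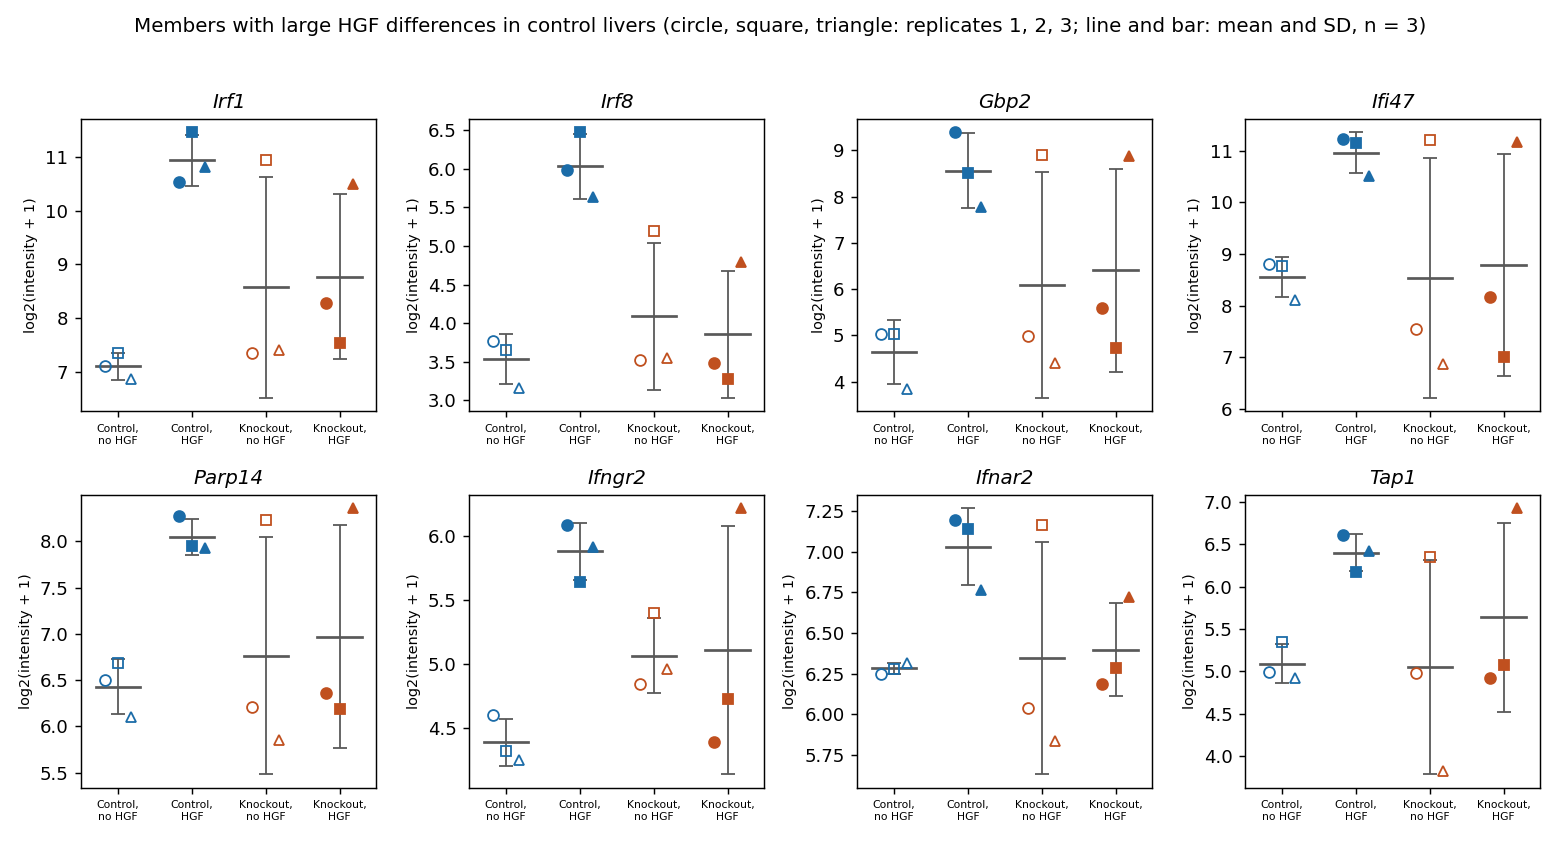
Levels of 8 members as log2(intensity + 1) (vertical axis, its range set per gene) in the 4 groups (horizontal axis); points are arrays, shaped by replicate number, and lines and bars are the group mean and SD (n = 3). In each of the 8, all HGF-treated controls lie above all untreated ones, and the square (replicate 2) of the unstimulated and the triangle (replicate 3) of the treated knockouts are the highest of their groups.

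All 6 tested GTPases were higher in HGF-treated than in untreated controls without overlap, with a median difference of 1.07. Gbp2, a guanylate-binding protein that attacks pathogen vacuoles, measured 5.02, 5.04 and 3.84 without HGF and 9.40, 8.51 and 7.78 with HGF in controls. Its knockout levels were 4.98, 8.90 and 4.40 without HGF and 5.60, 4.73 and 8.89 with it. The lowest treated control was above the highest untreated one by more than the SD of either group (0.69 and 0.81), and the difference of 3.93 was the highest among the members (SE 1.25, adjusted p = 0.133 over 4 groups, 0.0188 without the knockout replicate 2 arrays, limma). Gbp3, from the same gene cluster, differed by 1.08 (SE 0.48).

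Ifi47, one of the immunity-related GTPases, measured 8.81, 8.76 and 8.11 without HGF and 11.22, 11.15 and 10.50 with HGF in controls. The knockout arrays held both extremes, at 7.56, 11.19 and 6.87 without HGF and 8.17, 7.005 and 11.17 with it. The difference in controls was 2.40 (SE 1.16, adjusted p = 0.288, and 0.00230 in the control groups alone, limma). Igtp (1.06, SE 0.72), Irgm1 (0.72, SE 0.58) and Iigp1 (0.45, SE 0.30), relatives that guard membranes or coat vacuoles, differed less. Mx2, which restricts viruses, reached a level of 4 on 2 arrays only and was not tested; it measured 2.61, 2.63 and 2.68 without HGF and 4.18, 4.24 and 3.59 with HGF in controls. Mx1 lay between 2.25 and 3.15 on all arrays.

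Antiviral effectors were less uniform, with 7 of 10 positive, a median of 0.68 and 3 without overlap: Parp14, Oasl1 and Xaf1. Parp14, an ADP-ribosyltransferase, measured 6.50, 6.69 and 6.10 without HGF and 8.28, 7.95 and 7.92 with HGF in controls, a difference of 1.62 (SE 0.65, adjusted p = 0.211 over 4 groups and 0.00248 in the control groups alone, limma). In knockouts it read 6.21, 8.23 and 5.85 without HGF and 6.36, 6.19 and 8.36 with it. Oasl1, an inhibitor of Irf7 translation, measured 5.73, 5.66 and 4.59 without HGF and 6.56, 6.87 and 6.81 with HGF in controls, and differed by 1.42 (SE 0.76). For Xaf1, an antagonist of apoptosis inhibitors, the difference was 0.60 (SE 0.25).

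Ifit1, Rsad2 and Oasl2 overlapped between the control groups. Ifit1, which binds foreign RNA caps, measured 5.68, 7.03 and 5.39 without HGF and 7.11, 7.25 and 6.92 with it (difference 1.06, SE 0.83). Rsad2, which makes a chain-terminating nucleotide against viruses, read 5.89, 6.64 and 5.57 without HGF and 6.61, 6.97 and 6.79 with it (0.76, SE 0.51). For both genes untreated replicate 2 lay within the treated range while the other untreated controls lay below it. Oasl2 differed by 0.80 (SE 0.42), and Samhd1, which depletes nucleotides, by 0.07 (SE 0.19). Ifi27, Ifi35 and Bst2, the last a tether of budding virions, had negative differences of -0.07 (SE 0.14), -0.08 (SE 0.17) and -0.22 (SE 0.15). Ifit2 (3.06 to 4.22), Isg20 (2.40 to 3.49) and Oas2 (3.10 to 3.58) stayed at low levels on the 12 arrays.

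Sensors of foreign nucleic acid and Isg15 conjugation genes showed small differences. Ifih1, a sensor of long double-stranded RNA, differed by 0.13 (SE 0.16), Eif2ak2, the kinase that halts translation on double-stranded RNA, by 0.11 (SE 0.20), and Zbp1, a sensor of Z-form nucleic acid, by 0.33 (SE 0.29). Zbp1 reached a level of 4 on 6 arrays only, all treated controls among them. Dhx58 ranged from 2.52 to 4.17 and was not tested. Usp18, which removes Isg15 and dampens Ifnar2 signalling, differed by 0.64 (SE 0.33): treated controls clustered at 8.27, 8.21 and 8.27, and untreated ones lay at 7.33, 8.25 and 7.24. Ube2l6, the conjugating enzyme (0.10, SE 0.25), and Trim25, a ligase (0.06, SE 0.13), had differences smaller than their SE.

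In the supply of peptides for MHC class I, the transporter chain Tap1 was higher after HGF and 2 immunoproteasome subunits beside it in the genome were not. Tap1 measured 5.00, 5.35 and 4.92 in controls without HGF and 6.61, 6.18 and 6.42 with it. Its knockout levels were 4.98, 6.35 and 3.82 without HGF and 4.92, 5.07 and 6.92 with it. The Tap1 difference in controls was 1.31 (SE 0.62, adjusted p = 0.281 over 4 groups and 0.00407 in the control groups alone, limma), and the control groups did not overlap. Psmb9, whose start faces that of Tap1, measured 6.95, 7.56 and 6.91 without HGF and 6.97, 7.02 and 7.38 with it. Its groups overlapped, and the difference was -0.01 (SE 0.22). Psmb8, on the other side of Tap1, differed by -0.24 (SE 0.16), and Tap2, the partner chain of the transporter and next in order, by 0.53 (SE 0.24). Whether these neighbours differ from one another was not tested. Tap2 lay between 3.43 and 4.41 on all arrays and reached a level of 4 on 5 only, an untreated control among them. The others were treated controls, unstimulated knockout replicate 2 and HGF-treated knockout replicate 3. Psmb10, the immunoproteasome subunit encoded elsewhere, measured 8.05, 8.04 and 7.75 without HGF and 8.72, 8.56 and 8.26 with it (0.57, SE 0.25). Tapbp, the chaperone that holds class I molecules at the transporter, differed by 0.33 (SE 0.26), without overlap. Psmb6 and Psmb7, constitutive subunits that Psmb9 and Psmb10 replace, differed by -0.13 each (SE 0.11 and 0.09). Both lay lower without overlap, as did 23.7% of all tested probe sets.

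**Figure D3:**
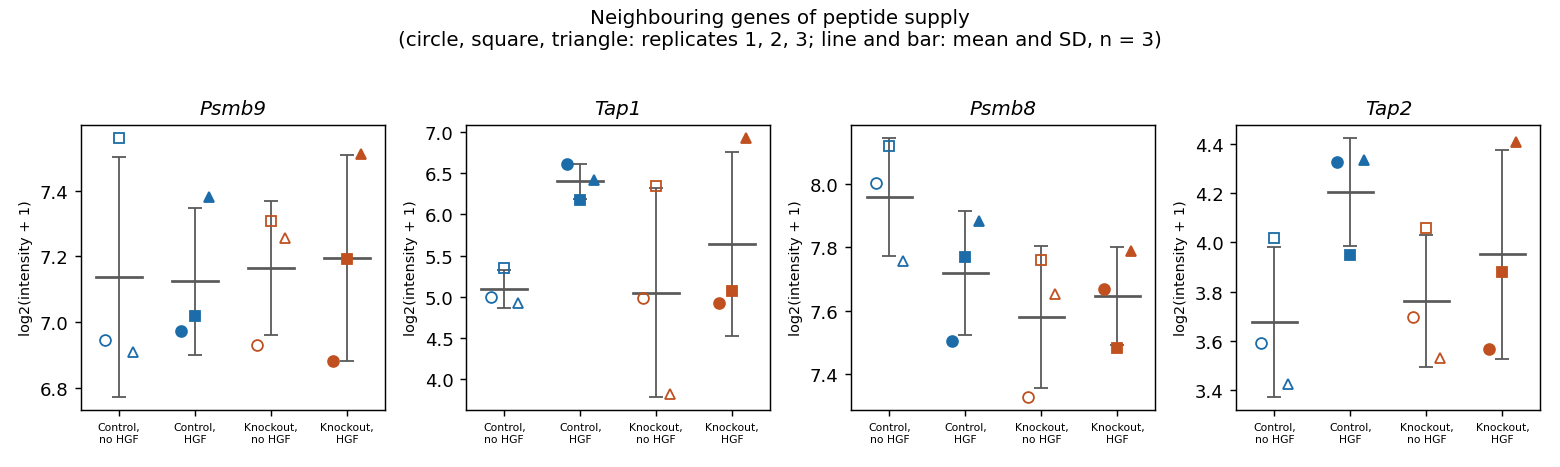
Levels of Psmb9, Tap1, Psmb8 and Tap2, neighbours in this order on chromosome 17, as log2(intensity + 1) (vertical axis, its range set per gene) in the 4 groups (horizontal axis); points are arrays, shaped by replicate number, and lines and bars are the group mean and SD (n = 3). The control groups are separate for Tap1 and overlap for the other 3 genes.

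In knockout livers, by label, no member separated with HGF. The median difference was 0.14, with 32 of 39 positive, against a median of -0.00 over all tested probe sets. None of the 39 was called by limma (0% of all tested), 0 had an unadjusted p under 0.05 (1.02% of all higher, 0.883% lower), and 0 lay without overlap higher (2.56%) or lower (1.24%). The largest differences were those of Oasl1 (0.82, SE 0.76), Ifit1 (0.67, SE 0.83), Tap1 (0.59, SE 0.62), Ifnar1 (-0.40, SE 0.20), Ube2l6 (0.37, SE 0.25) and Eif2ak2 (-0.34, SE 0.20). Within the knockout groups the spread was wide: the SD of Irf1 was 2.06 without HGF and 1.54 with it, against 0.25 and 0.48 in controls, and that of Gbp2 was 2.45 and 2.19. Without the replicate 2 arrays, which leaves 2 arrays in each group, the median was 0.53 with 34 of 39 positive, and 1 member, Irf9, was called (difference 0.99, adjusted p = 0.0346, limma; 2.12% of all tested were called higher). Without knockout replicate 3 with HGF the median was -0.10, and without only the unstimulated replicate 2 it was 0.34. Oasl1 read 4.95, 6.40 and 3.30 without HGF and 5.02, 4.97 and 7.13 with it in knockouts, where a single array of each group lay near the treated controls.

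The interaction, the HGF effect in knockouts minus that in controls, was negative in 31 of 39 members with a median of -0.39, against 0.07 over all tested probe sets. It shares its arrays with both HGF effects. Limma called 0 of 39 (0% of all tested). At an unadjusted p under 0.05 there were 3 negative (7.69%, against 5.04% of all) and 0 positive (5.79% of all). These were Irf1 (-3.64, SE 1.35), Irf8 (-2.73, SE 0.70) and Ifngr2 (-1.44, SE 0.55), with adjusted p of 0.402, 0.281 and 0.411 in limma. Gbp2 had -3.62 (SE 1.77), Ifi47 -2.16 (SE 1.64) and Parp14 -1.41 (SE 0.92). Without the knockout replicate 2 arrays the median turned to 0.12, with 24 of 39 positive, and limma again called 0. Irf1 then had -1.83, Irf8 -1.90, Gbp2 -1.38 and Ifi47 0.06. The interaction median was -0.65 without HGF-treated knockout replicate 3 and -0.07 without unstimulated knockout replicate 2. Limma with array weights, whose estimation stopped before converging, called 3 members, Irf1, Irf8 and Ifngr2. The share of all tested probe sets called with these weights is not given, so this count is not read as a trait of the members. In 21 of 22 other settings the count stayed at 0.

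**Figure D4:**
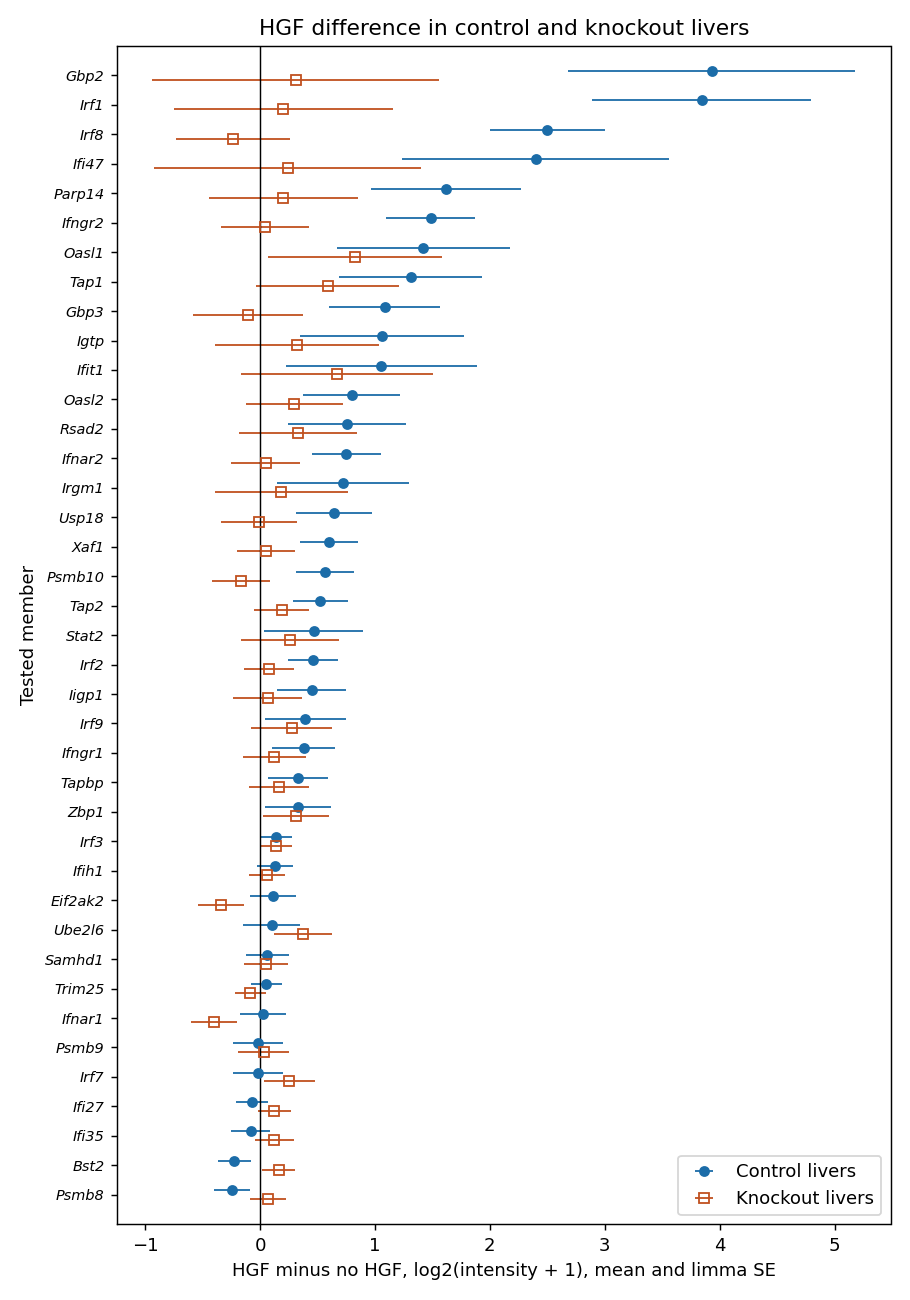
HGF difference of each of the 39 tested members (vertical axis, ordered by the difference in controls) in log2 units (horizontal axis); filled circles are control livers, open squares knockout livers, and bars are the limma SE. Gbp2 (3.93) and Irf1 (3.84) lead in controls, and the knockout differences lie between -0.40 and 0.82 with bars of the same length, since the fit shares one estimate of the spread per gene.

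Between genotypes, several antiviral genes had lower levels in knockout livers, and in Ifi27 and Irf7 every knockout array lay below every control array, on whichever side of the HGF response it stood. Averaged over both conditions the knockout difference was negative in 36 of 39 members, with a median of -0.35, against 0.00 over all tested probe sets. Limma called 0 of 39 (0.0150% of all tested). At an unadjusted p under 0.05, 10 were lower (25.6%, against 4.91% of all) and 0 higher (4.47%): Ifi27, Irf7, Bst2, Rsad2, Ifih1, Usp18, Xaf1, Ifit1, Trim25 and Irf8. In a comparison of all 6 knockout with all 6 control arrays, Irf7 and Ifi27 lay lower without overlap (2 of 39, against 0.374% of all tested) and 0 lay higher (0.374%). Without the minimum on levels the lower count was 2 of the 45 members with a probe set, against 0.261% of all 16475. Without the knockout replicate 2 arrays, Irf7, Ifi27 and Trim25 lay lower without overlap (3 of 39, against 0.793%) and 0 lay higher (0.898%). Limma then called Ifi27 and Rsad2 lower (2 of 39, against 0.359%).

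Ifi27, a mitochondrial protein strongly induced by type I interferons, measured 9.52, 9.28 and 9.33 in controls without HGF and 9.08, 9.25 and 9.59 with it. Knockout levels were 8.52, 8.83 and 8.71 without HGF and 8.75, 8.90 and 8.78 with it. The lowest control array was thus above the highest knockout array, and the split of the knockout arrays was not visible in this gene. The averaged difference was -0.59 (SE 0.10, adjusted p = 0.111, limma), and -0.65 (adjusted p = 0.0444, limma) without the replicate 2 arrays.

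Irf7, the factor that amplifies type I interferon production, measured 4.70, 4.96 and 4.35 without HGF and 4.33, 4.54 and 5.09 with HGF in controls. In knockouts it measured 3.58, 3.92 and 3.94 without HGF and 3.88, 4.07 and 4.26 with it, all below the lowest control. Its averaged difference was -0.72 (SE 0.16, adjusted p = 0.163, limma), at levels close to the minimum of 4. Irf7 reached 4 on 8 arrays, all the controls among them, and was tested because of the controls. Bst2 measured 9.35, 9.78 and 9.40 without HGF and 9.08, 9.44 and 9.35 with HGF in controls. Its knockout levels were 8.69, 8.96 and 8.99 without HGF and 9.07, 8.98 and 9.08 with it, so that only 1 control array came near them. The difference was -0.44 (SE 0.10, adjusted p = 0.193, limma).

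Rsad2 and Ifit1 had the largest averaged differences, -1.53 (SE 0.36, adjusted p = 0.193) and -1.50 (SE 0.59, adjusted p = 0.465, limma). Rsad2 measured 4.15, 5.80 and 4.19 without HGF and 4.65, 4.44 and 6.05 with it in knockouts. Ifit1 measured 4.05, 6.58 and 3.58 without HGF and 4.98, 4.30 and 6.94 with it. In both, the knockout arrays that stood with the treated controls on the index reached control levels and the other 4 lay below all controls. Rsad2 without the replicate 2 arrays had -1.65 (adjusted p = 0.0448, limma). Usp18 (-0.66, SE 0.23), Xaf1 (-0.48, SE 0.18), Ifih1 (-0.32, SE 0.11) and Trim25 (-0.22, SE 0.09) were lower by less.

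**Figure D5:**
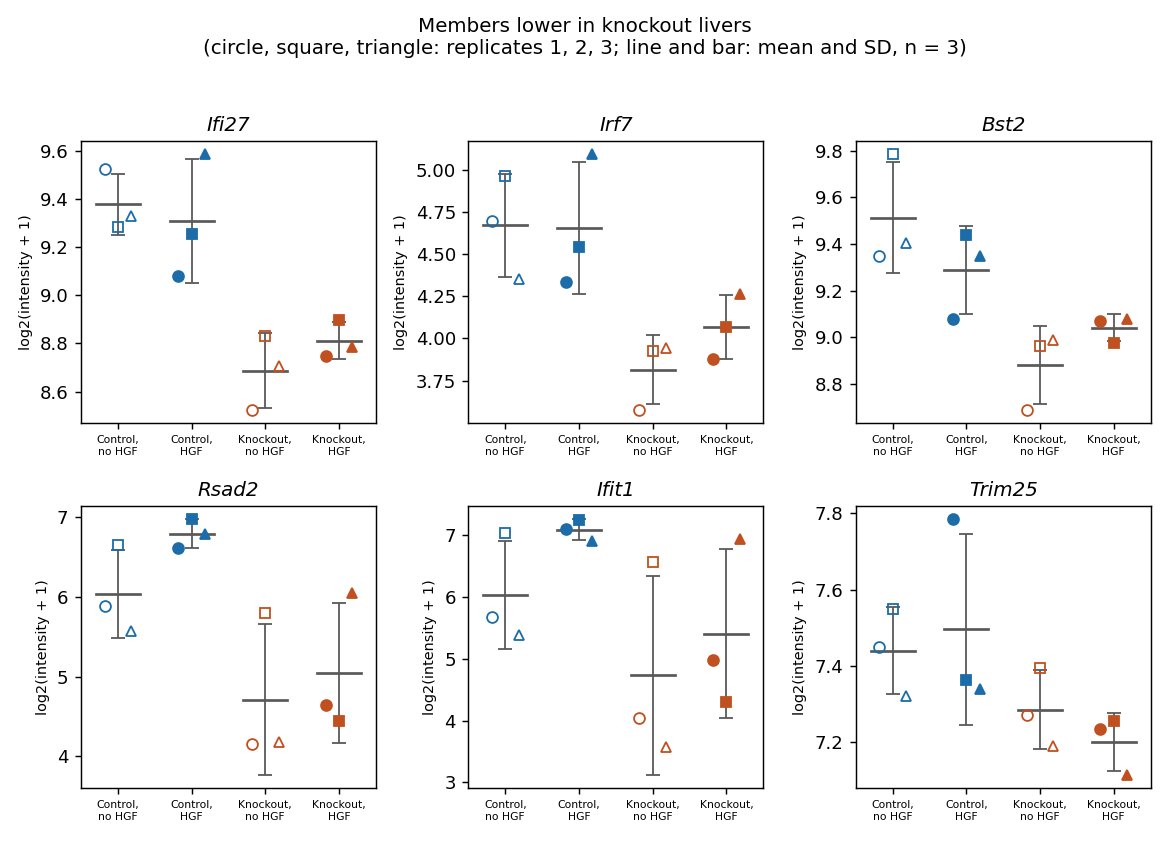
Levels of 6 members with lower means in knockout livers, as log2(intensity + 1) (vertical axis, its range set per gene) in the 4 groups (horizontal axis); points are arrays, shaped by replicate number, and lines and bars are the group mean and SD (n = 3). Ifi27 and Irf7 separate all 6 knockout from all 6 control arrays, whereas in Rsad2 and Ifit1 the square without HGF and the triangle with HGF lie above the other knockout arrays.

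Taken by condition, the genotype difference without HGF had a median of -0.16 with 26 of 39 negative. Over all tested probe sets the median was -0.03, with 3668 of 6683 negative. The median of the members was -0.40 without unstimulated knockout replicate 2 and -0.04 without replicate 1, and without both replicate 2 arrays 6 of the 39 were positive. Limma called 0 (0.0599% of all tested), and at an unadjusted p under 0.05, 5 were lower (12.8%, against 6.72%) and 0 higher (4.10%): Ifi27, Bst2, Irf7, Rsad2 and Psmb8. Irf7, Ifi27 and Bst2 lay lower without overlap (3 of 39, against 12.1% of all), and Ifnar1, Ifngr2 and Irf1 higher (3 of 39, against 6.61%), so the first count was below the share among all probe sets and the second near it. Without the replicate 2 arrays Ifi27 was called (-0.76, adjusted p = 0.0451, limma; 1 of 39, against 1.23% lower), and the Irf1 difference was 0.28 in place of 1.47.

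With HGF, the median was -0.53 with 36 of 39 negative, against a median of 0.04 and 2887 negative of all 6683 tested probe sets. Limma called 0 (0.0150% of all tested), and at an unadjusted p under 0.05, 11 were lower (28.2%, against 4.28%) and 0 higher (5.30%). Without overlap, 11 lay lower (28.2%, against 6.08%) and 0 higher (8.81%): Ifnar2, Irf1, Irf7, Irf8, Ifih1, Ifi27, Rsad2, Xaf1, Usp18, Trim25 and Gbp3. This comparison uses the same HGF-treated control arrays as the HGF effect in controls. Irf8 had -2.18 (SE 0.50, adjusted p = 0.381), Irf1 -2.17 (SE 0.95, adjusted p = 0.513) and Usp18 -0.98 (SE 0.33, adjusted p = 0.484, limma).

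Other genes of the pathway were taken from lists of the same standing. The interferon genes Ifnb1 (2.02 to 2.44), Ifna4 (1.81 to 2.14) and Ifng (1.79 to 2.13) lay below the minimum on all 12 arrays, with no separation by group. Of 22 genes of interferon production 5 were tested and 3 were positive in controls with HGF: the kinase Ikbke (3.27, SE 1.17), the adaptor Myd88 (2.52, SE 0.77) and the kinase Tbk1 (0.97, SE 0.37), while the adaptor Mavs had -0.52 (SE 0.17). Of 14 JAK-STAT genes 9 were tested and 7 were positive, including the feedback inhibitor Socs3 (4.04, SE 0.91), the phosphatase Ptpn2 (1.80, SE 0.44) and the kinases Jak2 (1.11, SE 0.36) and Jak1 (0.74, SE 0.19). Socs1 lay between 1.48 and 1.94 and was not tested. Of 50 other interferon-induced genes 25 were tested, 22 were positive and 12 lay higher without overlap (against 14.1% of all tested probe sets), among them the chemokines Cxcl10 (7.32, SE 2.19), Cxcl9 (4.16, SE 1.43) and Cxcl11 (1.29, SE 0.41) and the nuclear chaperone Daxx (0.74, SE 0.23). Cxcl11 reached a level of 4 on 3 arrays only, all of them arrays where it was high, so it was tested because of them. Ccl5 and Trim21, also among the 12, reached it on 5 arrays each, again only where they were high. Limma over the 4 groups called 0 genes in each of these lists. Without the knockout replicate 2 arrays it called 3 of the 5 tested genes of interferon production, 5 of 9 JAK-STAT genes and 4 of 25 other interferon-induced genes for HGF in controls, all higher, against 5.34% of all tested. In the genotype average, 23 of the 25 other interferon-induced genes were negative, with a median of -0.37, and 0 were called.

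Cxcl10 measured 5.02, 5.48 and 4.19 in controls without HGF and 12.06, 12.58 and 12.02 with it. In knockouts it measured 7.34, 12.51 and 4.11 without HGF and 7.27, 3.62 and 12.17 with it. The arrays with the highest Cxcl10, at 12.02 and more, were those with the highest Irf1 and Gbp2. Replicate 1 of both knockout groups lay in between for Cxcl10. On the unstimulated one Irf1 (7.35) and Gbp2 (4.98) lay near untreated control levels.

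S100a8, S100a9 and Mmp8, listed as neutrophil markers, were high on the same arrays as the members. Of 12 neutrophil markers 10 had a probe set and these 3 were tested, while Mpo, Elane, Ngp, Ltf, Camp, Csf3r and Cxcr2 did not meet the minimum. Mmp8 reached a level of 4 on 4 arrays only, all of them arrays where it was high, so it was tested because of them. Mpo, Elane, Ltf and Camp, which mark neutrophil granules, lay between 1.79 and 2.66 on all 12 arrays. Ngp measured 2.28 to 2.62 in controls without HGF and 2.76 to 3.33 with HGF. Csf3r measured 2.59 to 2.84 and 3.35 to 4.12 in these groups. Cxcr2 overlapped between them, and lay between 2.71 and 4.27 on all arrays. In knockouts Ngp, Csf3r and Cxcr2 were highest in replicate 2 without HGF and in replicate 3 with HGF. The summed neutrophil intensity was 55.9 to 113 in controls without HGF and 797 to 2888 with HGF. In knockouts it was 63.1 to 1291 without HGF, highest in replicate 2, and 47.6 to 1279 with HGF, highest in replicate 3. Where this sum was high it was mostly S100a8 and S100a9. All 11 Kupffer cell markers were tested, and their sum was 3495 to 5308 and 2831 to 3780 in controls without and with HGF, and 2661 to 4069 and 2980 to 4266 in knockouts. All 7 markers of sinusoidal endothelium were tested, and their sum was lower with HGF in controls without overlap, at 1454 to 1518 without and 1178 to 1196 with HGF, while it was 1280 to 1655 and 1341 to 1678 in knockouts. Without overlap 4 of these 7 markers lay lower in HGF-treated controls (against 23.7% of all tested probe sets) and 1, Lyve1, higher (against 14.1%). Lyve1 reached a level of 4 on 5 arrays only, all of them arrays where it was high. Of 11 T and NK cell markers 1, Ptprc, was tested, and of the B cell, dendritic cell and cholangiocyte markers 0 were. The 7 hepatocyte markers matched had sums of 89207 to 98215, high on every array of this tissue. The part of these cells in the member differences was not tested.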

How the data were processed

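RNA of 12 livers was labelled with biotin and hybridised to Affymetrix arrays, per the labels' protocols. The deposited table holds linear intensities, 1 probe set per gene, made with GCRMA per the submitters' processing notes. GCRMA corrects background by base composition and equalises the arrays, which hides any shift common to most transcripts. Sample titles gave each array its group and replicate number. Here 1 was added before log2, 64 array controls were left out, and probe sets with log2 of at least 4 on at least 3 arrays were tested with limma 3.58.1 in R 4.3.3 (4 group means, 8 residual degrees of freedom, two-sided, Benjamini-Hochberg), after a check on simulated data. The simulated noise was independent, with no split arrays, and was capped below the SD of Gbp2 in every group. The check therefore does not cover members with such a spread. The 3 arrays per group limit the precision.

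The members and all lists were chosen with earlier results of these data known. By the rule for names, every member could be named. Values on each array were given for members past the threshold, the 6 with the largest difference in an HGF contrast or the interaction, and those with the largest genotype difference. Up to 4 genes per other list were named by the smallest p in HGF-treated controls. Cd74, H2-DMb1, Tapbpl, H2-D1, Ccl5 and Trim21 were chosen after their values were seen. Some further members are given array by array on the same basis.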

Additional observations from a re-analysis of the deposited data

How the results depend on the processing

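Each comparison was recomputed under 21 to 23 other settings. The median difference of the members kept its sign for HGF in controls (0.33 to 0.57) and for the knockout effect without HGF (-0.40 to -0.04), with HGF (-0.75 to -0.41) and averaged (-0.49 to -0.24). For HGF in knockouts it ran from -0.10, without HGF-treated knockout replicate 3, to 0.53. The count of members called in HGF-treated controls, 0 over the 4 groups, was 1 with a pseudocount of 16, 10 with only the groups compared, 11 with array weights, 5 without both knockout replicate 2 arrays, and 0 to 4 when single arrays were left out. Array weights also gave 5 calls in the knockout effect without HGF, 9 with HGF, 13 averaged over both and 3 in the interaction. Their estimation stopped before converging. Shares over all tested probe sets are not given for the weights, the pseudocount or single arrays left out. Those counts are therefore not read as a trait of the members. Without both knockout replicate 2 arrays, 1 member was called for HGF in knockouts, 1 for the knockout effect without HGF and 2 averaged over both, and the interaction median was 0.12 in place of -0.39. Leaving out single arrays gave 0 calls in the other 5 comparisons. The other settings (no filter, a stricter filter at log2 6, quantile normalization, a trended robust prior, and leaving out the 2 arrays whose description carries an added letter) stayed at 0 calls in these 6 comparisons. With the replicate number as a replicate block, 0 members were called in each comparison. In controls the numbers showed little pairing: correlations of deviations between same-numbered arrays were 0.10, 0.18 and 0.05. In knockouts they were 0.12, -0.83 and -0.70. The split arrays enter the knockout deviations, so these values cannot decide on pairing. The cause of the changes between settings was not tested. Signals near background limit the 6 members that did not meet the minimum level, and 3 arrays per group limit all differences.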

Other observations

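MHC class II molecules present peptides to helper T cells, and their genes are also interferon-gamma targets. Of the 17 tested genes of other antigen processing and presentation, 13 had negative HGF differences in controls, with a median of -0.14. Over all tested probe sets 4307 of 6683 were negative, with a median of -0.09. Without overlap 5 of the 17 lay lower (against 23.7% of all) and 2, Tapbpl and H2-D1, higher (against 14.1%). No test compared class I with class II genes. In control livers H2-Eb1 measured 7.92, 8.06 and 7.31 without HGF and 7.13, 6.58 and 6.81 with HGF, a difference of -0.92 (SE 0.27, adjusted p = 0.117 over the 4 groups, 0.0427 without the knockout replicate 2 arrays, limma). Its groups did not overlap. H2-Aa (-0.86, SE 0.27) and H2-Ab1 (-0.75, SE 0.27) were lower with overlap, as was the invariant chain Cd74 (-0.50, SE 0.22), chosen after its values were seen. Tapbpl, chosen in the same way, measured 6.70, 6.69 and 6.53 without HGF and 8.05, 7.63 and 7.62 with HGF. H2-D1, also chosen so, had means of 11.79 without and 12.14 with HGF. H2-DMb1, a class II peptide editor also chosen after its values were seen, had means of 3.89 without and 4.10 with HGF. In HGF-treated livers H2-Eb1, H2-Aa, H2-Ab1 and Cd74 lay higher in knockouts than in controls without overlap: by 1.18 (SE 0.27) in H2-Eb1, 1.14 (SE 0.27) in H2-Aa, 1.02 (SE 0.27) in H2-Ab1 and 0.72 (SE 0.22) in Cd74. Of the 17, 4 thus lay higher without overlap (against 8.81% of all tested probe sets) and 1 lower (against 6.08%). This comparison uses the same treated controls, and limma called 0 of the 17 tested genes of this list in it (0.0150% of all tested). In knockouts H2-Eb1 measured 7.55, 8.43 and 7.97 without HGF and 8.29, 7.77 and 8.01 with it. The knockout arrays that stood with the treated controls on the index thus lay above all treated controls in this gene. In the genotype average, 5 of the 17 were higher at an unadjusted p under 0.05 (limma, against 4.47% of all tested). There 1 was lower (against 4.91%) and 0 were called. Ciita, the factor that switches class II genes on, lay between 2.05 and 2.40 on all 12 arrays, below the minimum level. Dendritic cell markers were below the minimum, and the Kupffer cell sum was 2831 to 3780 in treated controls against 2980 to 4266 in treated knockouts; the part of these cells was not tested.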
